A study of Mus musculus with 24 samples.

Results

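The genes that supply histones to replicating DNA were examined in lungs of mice given an aqueous Artemisia argyi extract (AEAA) before a lipopolysaccharide (LPS) challenge. They were chosen by biotype and name: protein-coding genes whose symbols carry the H2ac, H2bc, H3c or H4c cluster names, and the linker histone genes H1f1 to H1f5. The rule gave 67 of the 78298 genes in the deposited table, or 5 H1, 18 H2A, 19 H2B, 12 H3 and 13 H4 genes. On the GRCm38 annotation 53 of them lie on chromosome 13, 10 on chromosome 3, 3 on chromosome 11 and 1 on chromosome 6.

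RNA of whole lung from wild-type C57BL/6 mice, listed as males of 7 weeks, was sequenced in 24 libraries labelled as biological replicates. In the LPS group 5 mice had LPS instilled into the trachea at 5 mg/kg and no extract. The low-, mid- and high-dose groups, of 5 mice each, drank water with AEAA at 0.5 (low), 1 (mid) or 1.5 (high) mg/mL for 28 days and had the same LPS on day 29, and the 4 control mice had saline. Lungs were taken 8 h after the challenge. No group had the extract without LPS, so each dose is set against LPS alone.

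Histone genes of this kind are transcribed in S phase, when DNA is copied and new nucleosomes are needed. Their transcripts usually lack introns and a poly(A) tail, and end just past a stem-loop in the 3′ untranslated region that the stem-loop binding protein SLBP holds during processing and translation. Some of these genes also give a longer, polyadenylated transcript, mainly in cells that have left the cycle. H2A, H2B, H3 and H4 form the core of the nucleosome, and H1 binds the linker DNA between nucleosomes. The replication-independent histones, such as H3.3 and H2A.Z, are made throughout the cycle from ordinary polyadenylated messages. Lung is mostly a resting tissue, so cycling cells are a small part of it.

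The stem-loop is shown first because it sets this class of message apart, and because abundant members differ in how much annotated transcript follows it. It was searched in the longest annotated coding transcript of each member, on the sense strand, as GG, any 3 bases, TTTTCA, any 3 bases and CC. A match was found in 34 of 67 members. A transcript that ends before the stem-loop in the annotation gives none, and neither does a stem-loop with other letters than this pattern. Which of these holds for each member without a match was not tested. The 34 matches had 3 forms: 25 read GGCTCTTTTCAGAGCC, 7 read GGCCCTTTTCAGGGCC and 2 read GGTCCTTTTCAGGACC. The sites of 5 members that the results turn on, with the 16 bases of the stem-loop in capitals, are given 5′ to 3′ from GENCODE M21 transcripts, all from the 3′ untranslated region, with GRCm38 coordinates and strand.
H2ac19 (chr3:96239781-96239804, minus strand): aaaaaGGCTCTTTTCAGAGCCacc
H1f2 (chr13:23739507-23739530, plus strand): caaaaGGCTCTTTTCAGAGCCacc
H2ac25 (chr11:58955167-58955190, plus strand): ccaaaGGCTCTTTTCAGAGCCacc
H4c8 (chr13:23531453-23531476, plus strand): ccaaaGGCCCTTTTCAGGGCCgcc
H4c17 (chr13:21812124-21812147, plus strand): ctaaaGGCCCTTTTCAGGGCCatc

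The annotated transcript stopped 35 bases past the stem-loop in H2ac19, 46 in H4c8 and 3 in H4c17. It went on for 840 bases in H1f2 and for 1643 bases in H2ac25. In all, 17 members had more than 100 annotated bases past the stem-loop and 17 had 100 or fewer. The transcripts of H2bc4, of 1156 bases, and H2bc21, of 2620 bases, had no match. A long annotated end was not limited to abundant members: H2ac6 had 2010 bases past its stem-loop and H1f4 had 1153, yet their mean levels were 0.543 and 0.549 TPM (a level per unit of transcript length, relative to all transcripts of the library).

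Many members are near copies of one another, and how the authors' counting shared reads between copies is not given in the sources used here. Every 100-base stretch of the annotated H2ac19 transcript also occurs in that of H2ac18, and 88.1% of those of H4c17 occur in H4c18. By contrast H2ac25 and H2bc21 shared no such stretch with another member, and H1f2 shared 5.07% of its stretches. Values of H2ac18 and H2ac19, and of H4c17 and H4c18, are therefore uncertain as single genes.

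Promoters were taken from RefSeq on GRCm38.p6 for the 61 members matched by symbol or synonym, from 250 bases before to 50 bases after the start. On either strand, CCAAT was found in all 5 H1, 18 H2A, 16 H2B and 10 H3 promoters and in 3 of 12 H4 promoters, against 37.9% of 27025 promoters. The octamer ATTTGCAT was found in 7 H2A and 6 H2B promoters and in no H1, H3 or H4 promoter, against 1.75% of all promoters. Windows of neighbouring H2A and H2B genes can overlap, and a site inside both was counted for each. The octamer of H2ac8 and that of H2bc8 are the same site, so counts are of promoters and not of separate sites. The 150 bases before the start of H1f2 and of H2ac25, which varied together across libraries, and of H4c8, which changed most after LPS, are given with CCAAT, the octamer and TATAAA of either strand in capitals.
H1f2 (chr13:23738657-23738806, plus strand): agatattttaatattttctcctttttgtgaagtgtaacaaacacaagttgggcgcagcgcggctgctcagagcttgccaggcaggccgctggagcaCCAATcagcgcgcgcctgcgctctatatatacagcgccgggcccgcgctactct
H2ac25 (chr11:58954535-58954684, plus strand): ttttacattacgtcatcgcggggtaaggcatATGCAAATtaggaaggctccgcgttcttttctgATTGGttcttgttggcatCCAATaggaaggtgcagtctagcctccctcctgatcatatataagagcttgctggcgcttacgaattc
H4c8 (chr13:23530894-23531043, plus strand): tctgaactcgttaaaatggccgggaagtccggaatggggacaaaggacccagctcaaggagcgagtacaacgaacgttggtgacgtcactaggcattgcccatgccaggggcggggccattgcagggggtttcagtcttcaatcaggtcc
H2ac25 held the octamer in its reverse complement ATGCAAAT, with CCAAT on both strands. H1f2 held a single CCAAT, and none of the 3 motifs was found in the H4c8 stretch. A match is a description of letters, not of bound protein.

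Some facts of the libraries touch every result. In 7 of the 20 LPS-challenged libraries (LPS replicates 2 and 4, low-dose replicate 1, mid-dose replicates 1 and 4, high-dose replicates 1 and 4) Cxcl2, Saa3 and Tnf, which LPS induces, were far below their levels in the other 13. In the 7, Cxcl2, a neutrophil chemokine, was between 0.09 and 1.37 TPM, against 45.1 to 454 TPM in the other 13 and 0.06 to 0.27 TPM in control lungs. Saa3 was at 6.29 to 113.84 TPM in the 7, 3771.57 to 19721.5 TPM in the other 13 and 4.16 to 11.5 TPM in control lungs. Tnf was at 0.47 to 1.65, 17.68 to 64.46 and 0.22 to 0.76 TPM in these sets. In these genes the 7 libraries thus go against their label, and results are given with and without them. The 7 did not match control lungs throughout. Their summed TPM was 65933 to 125964 for 5 lung markers and 295 to 2078 for 10 neutrophil markers, outside the control ranges given below. The labels list LPS for control mice as well, where the protocol says saline. The sex label was not borne out either: Xist was at 25.8 to 95.5 TPM and Ddx3y at 0 to 0.02 TPM in all 24 libraries. Summed TPM of 5 lung markers was 67018 to 88899 in LPS lungs, against 277478 to 386675 in control lungs. Within that list, as deposited, Scgb1a1, a secretory protein of airway club cells, fell by 2.56 on the log2 scale, Cldn5, of endothelial cells, rose by 0.82, and Sftpc, Sftpb and Ager did not pass, at −0.96, 0.31 and 0.30. TPM of every library add up to the same total, so a smaller share for these genes leaves more for all others. The median gene was 0.55 higher on the log2 scale in LPS lungs than in control lungs as deposited, and 0.00 after scaling each library by its median ratio to the average library. Both scales are therefore given. Other markers moved too: summed TPM of 10 neutrophil markers was 614 to 12667 in LPS lungs, against 138.4 to 202.9 in control lungs. Summed TPM of 5 skeletal muscle markers was 842.9 to 3371 in LPS replicates 1 and 3 and low-dose replicate 5, where the other 21 libraries had 3.00 to 55.3. The part of these cells in the results was not tested.

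Histone messages of this class were scarce in lung (plot of mean levels by rank). Summed over the 67 members they made up 0.0222 to 0.0458% of all TPM, with a median of 0.0298%. The sum was 294.9 ± 28.0 TPM in LPS, 321.2 ± 90.0 in low-dose, 325.2 ± 61.4 in mid-dose and 316.8 ± 88.3 in high-dose lungs (SD, n = 5 each), and 289.7 ± 17.4 TPM in control lungs (SD, n = 4). The range was 222.1 to 457.5 TPM over all libraries, below the 503.7 to 799.1 TPM of H3f3a alone, a replication-independent gene for histone H3.3. Libraries were labelled as depleted of ribosomal RNA, a method that keeps messages without a poly(A) tail, yet other such RNAs were low too. Rn7sk, an abundant small nuclear RNA, was at 25.8 to 94.8 TPM, and Malat1, a nuclear RNA with an unusual end, at 173.3 to 925.4 TPM. The range of Malat1 spans that of H3f3a. No expected level was set for either RNA, and how far the libraries kept such RNAs was not tested.

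**Figure D1:**
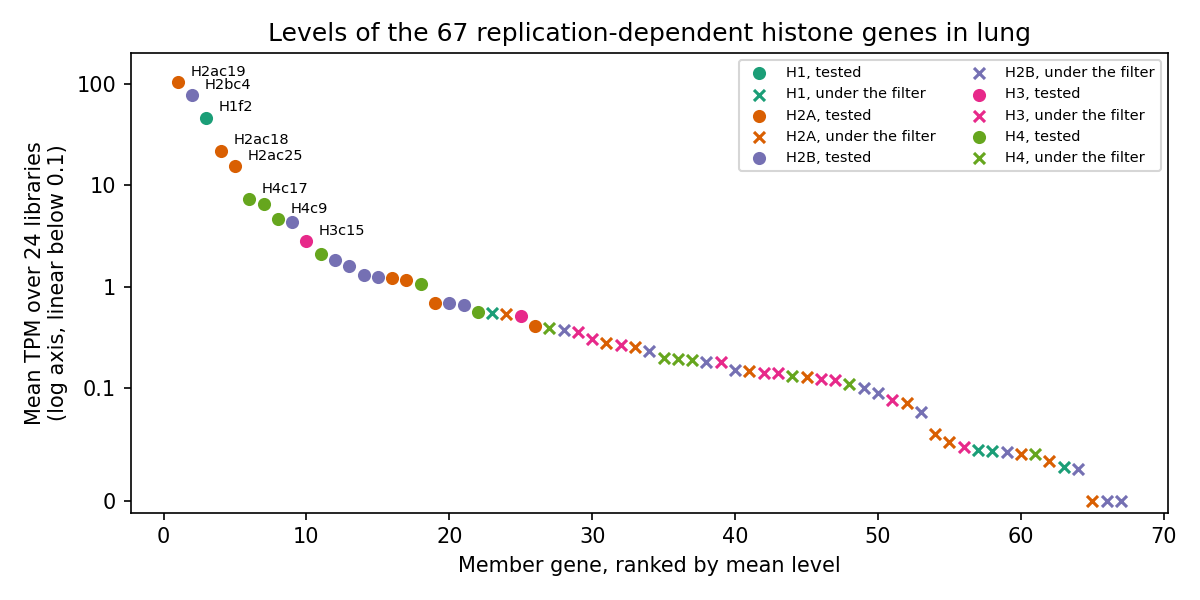
Mean TPM over 24 libraries (vertical axis, logarithmic above 0.1 and linear below) of the 67 histone genes ranked by level (horizontal axis), coloured by family; circles passed the filter on low values and crosses did not. The 5 genes above 10 TPM stand apart from 49 genes under 1 TPM.

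A handful of members carried most of this sum. H2ac19 averaged 103.2 TPM over the 24 libraries, H2bc4 76.4, H1f2 46.3, H2ac18 21.9 and H2ac25 15.4 TPM. These 5 genes held 79.7 to 87.9% of member TPM in a library. Another 13 averaged between 1 and 10 TPM, led by H4c17 at 7.26, H4c8 at 6.49, H4c9 at 4.61, H2bc21 at 4.37 and H3c15 at 2.82 TPM. The remaining 49 averaged under 1 TPM. H2ac1 and H2bc1, both known from testis, and H2bc18 were at 0 in every library.

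The families were thus unevenly represented. H1 consisted almost wholly of H1f2, which codes for H1.2, since H1f4 averaged 0.549 TPM and H1f5 0.0454 TPM. H3 was lowest, with family sums of 2.02 to 8.87 TPM, and its leading gene H3c15 was followed by H3c11 at 0.514 and H3c4 at 0.362 TPM. H2A sums ran from 118.2 to 207.4 TPM and H2B sums from 48.8 to 138.6 TPM. H4 sums were between 13.4 and 34.9 TPM, spread over H4c17, H4c8 and H4c9.

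Tests used the 24 members with at least 1 TPM in at least 4 libraries, 1 of H1, 7 of H2A, 8 of H2B, 2 of H3 and 6 of H4. The other 43 were under this filter. limma was fitted to log2(TPM + 1) of all 17823 genes that passed, with Benjamini-Hochberg adjustment over all of them, and 0.05 was the highest adjusted p that counted as passing. Fold changes refer to the log2(TPM + 1) scale, which understates the change of low genes. In bulk tissue, fewer cells of a type and less RNA per cell cannot be told apart.

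In LPS lungs against control lungs, few histone genes passed the test on TPM as deposited. H4c8, a histone H4 gene, fell, and the low-level H2B gene H2bc8 rose, the only 2 of 24 tested members that passed. Of all genes, 56.2% rose and 1.86% fell in this comparison. The median log2 fold change as deposited was 0.08 over the 24 members and 0.55 over all genes, and after scaling it was −0.39 over the members and 0.00 over all genes.

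H4c8 was at 5.55, 2.14, 7.65, 4.02 and 1.27 TPM in LPS lungs, against 13.64, 10.87, 12.40 and 9.17 TPM in control lungs. Every LPS library was below every control library, which held for 1.48% of all genes. The log2 fold change was −1.44 (SE 0.45, limma adjusted p = 0.0094). It was −2.01 after scaling (SE 0.45, limma adjusted p = 0.0028) and −1.30 without the 7 libraries with low Cxcl2 (limma adjusted p = 0.0157). In these annotated transcripts 38.5% of the 100-base stretches of H4c8 also occur in other members.

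H2bc8 was at 2.07, 1.99, 3.14, 1.05 and 1.46 TPM in LPS lungs, against 0.31, 1.58, 0.30 and 1.04 TPM in control lungs. The groups overlapped, since LPS replicates 4 and 5 lay within the control range of values up to 1.58 TPM. The log2 fold change was 0.73 (SE 0.30, limma adjusted p = 0.0447), and 0.41 after scaling (limma adjusted p = 0.305), so the call ended there. The call also ended without any of LPS replicates 1, 2 and 3, Control replicates 1 and 3 and AEAA mid-dose replicate 5. H2ac10 rose as well without LPS replicate 4 (1.48, limma adjusted p = 0.0244), and was 1.10 with all libraries (limma adjusted p = 0.0954).

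**Figure D2:**
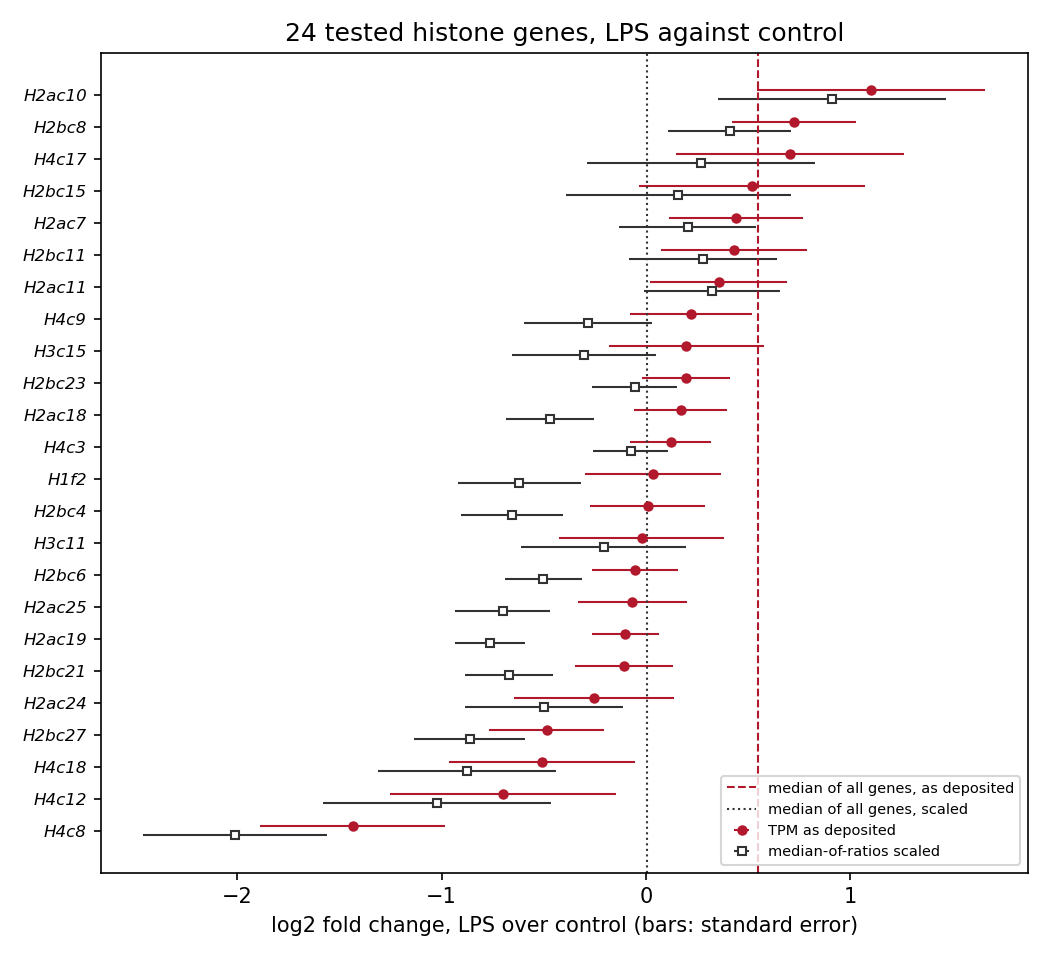
log2 fold change of the 24 tested histone genes in LPS lungs over control lungs (horizontal axis), with standard errors, as deposited (filled) and after median-of-ratios scaling (open); vertical lines give the median of all genes on each scale. Most members lie left of the median of all genes on both scales, and H4c8 lies farthest left at −1.44 and −2.01.

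The leading members did not pass as deposited. H2ac19 was at 81.40, 66.81, 99.11, 86.48 and 97.63 TPM in LPS lungs, against 93.71, 84.25, 100.41 and 89.19 TPM in control lungs. H2bc4 was at 70.73, 87.14, 60.71, 92.57 and 70.24 TPM in LPS lungs, against 66.79, 76.44, 77.70 and 79.56 TPM in control lungs. H1f2 was at 42.87, 63.43, 38.15, 50.47 and 32.35 TPM in LPS lungs, against 37.20, 44.34, 45.89 and 45.69 TPM in control lungs. The groups overlapped for all 3, and the LPS values of H2bc4 and H1f2 were more spread than the control values. Their log2 fold changes were −0.10 (SE 0.16), 0.01 (SE 0.28) and 0.04 (SE 0.33).

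After scaling, no member rose and 5 of 24 fell, where 13.8% of all genes rose and 14.2% fell. The 5 were H4c8, H2ac19 (−0.76, SE 0.17, limma adjusted p = 0.0029), H2ac25 (−0.70, SE 0.23, limma adjusted p = 0.0294), H2bc21 (−0.67, SE 0.22, limma adjusted p = 0.0249) and H2bc27 (−0.86, SE 0.27, limma adjusted p = 0.0224). H1f2 and H2bc4, at −0.62 and −0.65 after scaling, did not pass (limma adjusted p = 0.123 and 0.0545). On this scale 6 members, namely H4c8, H2ac19, H2bc21, H2ac25, H1f2 and H2bc4, had all LPS libraries below all control libraries, as had 13.5% of all genes. Whether members fell thus depends on the scale, except for H4c8, which fell on both.

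Leaving out the 7 libraries with low Cxcl2 left 3 LPS libraries and 23 tested members. Of these 2 rose, H2bc8 and H2ac10, where 56.8% of all genes rose, and 2 fell, H4c8 and H2bc27, where 5.24% of all genes fell. H2ac10 was at 1.60, 8.33 and 1.89 TPM in the 3 LPS libraries kept, against 0.00, 1.02, 0.00 and 0.55 TPM in control lungs. All 3 were above every control library, an order whose share over all genes was not computed. LPS replicate 3 was the highest. That library also had the highest Mki67, Top2a and Igkc of all 24, at 14.37, 33.79 and 2577 TPM. Its summed neutrophil and adipocyte markers were the highest too, at 12667 and 1291 TPM, and its erythroid markers the lowest, at 3460 TPM. The part of any of these in the H2ac10 value was not tested. Mki67 and Top2a mark dividing cells and Igkc antibody-making cells.

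The average of the 4 challenged groups, of 20 libraries, was then set against control. No member rose, where 55.1% of all genes did, and 1 of 24 fell, again H4c8, where 2.31% of all genes did. At an unadjusted p under 0.05 there were 2 members in either direction, H4c8 and H4c9. H4c8 averaged 6.64 ± 3.61, 5.90 ± 1.90 and 5.26 ± 4.20 TPM in low-, mid- and high-dose lungs (SD, n = 5 each) beside 4.13 ± 2.58 TPM in LPS lungs (SD, n = 5) and 11.5 ± 1.93 TPM in control lungs (SD, n = 4). Its log2 fold change was −1.11 (SE 0.37, limma adjusted p = 0.0135). Without Control replicate 1, which had the highest level of all libraries, no member fell, H4c8 being at −1.03 (limma adjusted p = 0.0517), and over all libraries left out in turn it was between −1.20 and −1.01. H4c12, another H4 gene, fell as well without Control replicate 3 (−1.28, limma adjusted p = 0.0272), and H4c17 rose without Control replicate 4 (1.22, limma adjusted p = 0.0478).

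After scaling, 6 members fell, where 18.7% of all genes fell and 19.1% rose. Besides H4c8 (−1.58) these were H2bc27, H2bc21, H2ac25, H2bc6 and H2bc4, at −0.42 to −0.65. H2ac19, at 0.17 as deposited, was −0.43 under upper-quartile scaling, so it has no stable direction here. Without the 7 libraries with low Cxcl2, 4 of 23 members rose as deposited, H4c9 (0.70), H2bc11 (0.72), H2ac11 (0.71) and H2ac7 (0.65), where 57.1% of all genes rose. In the same fit 3 fell, H4c8 (−1.33), H2bc21 (−0.44) and H2ac25 (−0.39), where 9.57% of all genes fell. Those 7 libraries held the 7 highest challenged values of H2bc21, so leaving them out lowers its challenged mean by construction. They held 5 of the 7 highest values of H2ac25, 0 of those of H4c9 and 1 each for H2bc11, H2ac11 and H2ac7. Leaving them out thus also lowers the mean of H2ac25 and raises those of the other 4, so these calls depend on the sorting too.

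H4c9, another H4 gene, was at 1.83, 2.94, 9.47, 3.77 and 2.19 TPM in LPS lungs, 3.90, 5.31, 5.35, 7.10 and 7.14 TPM in low-dose lungs, 3.82, 7.11, 7.42, 3.60 and 3.57 TPM in mid-dose lungs and 2.69, 5.83, 5.27, 4.61 and 6.33 TPM in high-dose lungs, against 2.48, 2.87, 2.65 and 3.36 TPM in control lungs. All low- and mid-dose libraries were above all control libraries, and LPS and high-dose libraries overlapped with control. The share of all genes with that order was not computed, and 55.1% of all genes rose in the challenged average. The challenged average was 0.56 higher (SE 0.24, limma adjusted p = 0.0550), and 0.16 after scaling (limma adjusted p = 0.636). It rose without any of LPS replicates 1, 3 and 5, low-dose replicate 1, mid-dose replicates 4 and 5 and high-dose replicate 1, at 0.48 to 0.60 (limma adjusted p = 0.0331 to 0.0496).

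**Figure D3:**
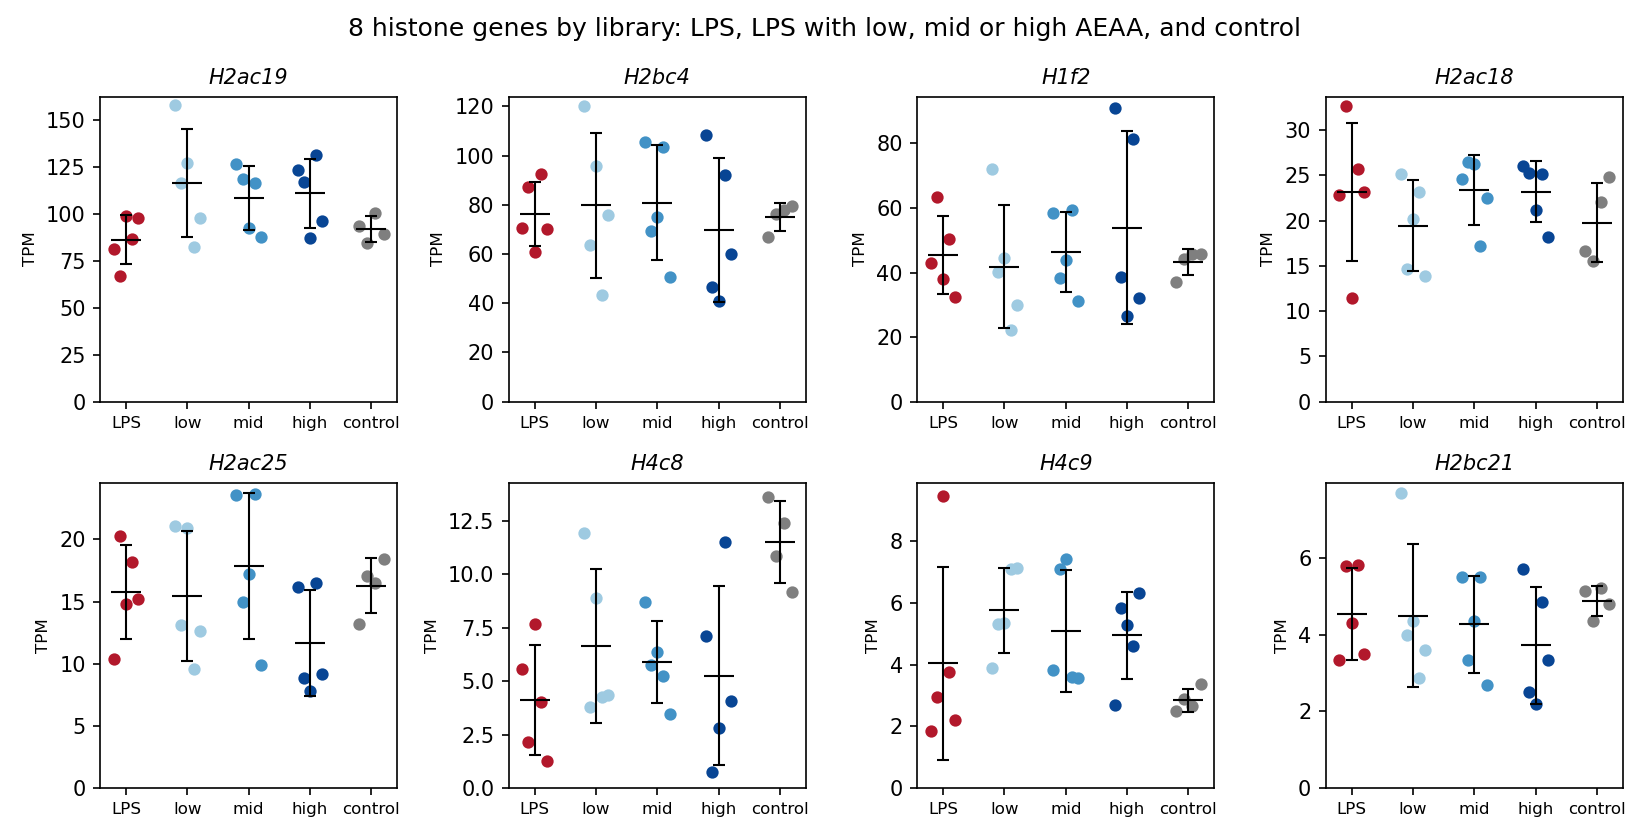
TPM (vertical axes, from 0) of 8 histone genes in each library, by group from left to right LPS, low-, mid- and high-dose AEAA with LPS, and control; black bars give the mean and SD. H4c8 is highest in control lungs, and H1f2, H2bc4 and H2bc21 spread more widely in the challenged groups than in control.

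The dose comparisons ask whether AEAA before LPS changed these genes relative to LPS alone. No member passed as deposited at any dose. For the low dose 0 of 24 rose and 0 fell, where 1.23% of all genes rose and 9.38% fell. For the mid dose 0 rose and 0 fell, where 0.0% of all genes did either. For the high dose 0 rose and 0 fell, where 2.05% of all genes rose and 25.5% fell. In the slope per mg/mL over the 4 challenged groups 0 rose and 0 fell, where 0.774% of all genes rose and 7.63% fell. Members with an unadjusted limma p under 0.05 numbered 2, 1, 2 and 1 in these fits, and the median log2 fold changes of members were 0.00, 0.06 and 0.06 at the 3 doses, beside −0.20, −0.04 and −0.27 for all genes.

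H2ac19 came nearest to a change shared by the doses. It was at 157.91, 116.45, 127.13, 82.19 and 98.00 TPM in low-dose lungs, at 126.31, 118.54, 92.66, 116.45 and 87.90 TPM in mid-dose lungs, and at 123.16, 116.86, 87.17, 131.08 and 96.26 TPM in high-dose lungs. In LPS lungs it was between 66.81 and 99.11 TPM, so each dose group overlapped with LPS and had 3 libraries above its highest value. The log2 fold change was 0.41 at the low dose (SE 0.16, limma adjusted p = 0.0887), 0.32 at the mid dose (SE 0.16, limma adjusted p = 1.0) and 0.36 at the high dose (SE 0.16, limma adjusted p = 0.0913). Without the 7 libraries with low Cxcl2 it shrank to 0.18 at the low dose (SE 0.15, limma adjusted p = 0.443). At the high dose it then was 0.10 (SE 0.16, limma adjusted p = 0.634).

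After scaling, H2ac19 passed at the low dose (0.63, limma adjusted p = 0.0432) and at the high dose (0.67, limma adjusted p = 0.0130), as the only member to do so. On that scale 1.74% of all genes rose and 0.55% fell at the low dose, and 5.67% rose and 3.27% fell at the high dose. In the scaled slope 0 members rose or fell, where 1.32% of all genes rose and 0.32% fell. All scaled high-dose libraries were above all scaled LPS libraries, which held for 2.36% of all genes. It was 0.37 at the mid dose (limma adjusted p = 1.0). The scaled fits were not run without the 7 libraries with low Cxcl2. As reads of H2ac19 and H2ac18 cannot be separated with certainty, their TPM were also summed, a choice made after the data were seen. The sum was 135.8 ± 31.2, 131.8 ± 17.1 and 134.1 ± 21.4 TPM in low-, mid- and high-dose lungs and 109.5 ± 8.14 TPM in LPS lungs (SD, n = 5 each). As deposited its log2 fold changes of 0.28, 0.26 and 0.28 did not pass (limma adjusted p = 0.162, 1.0 and 0.124), as those of H2ac19 alone did not. After scaling, the sum was 0.51 at the low dose (SE 0.14, limma adjusted p = 0.0505), 0.31 at the mid dose (limma adjusted p = 1.0) and 0.59 at the high dose (SE 0.14, limma adjusted p = 0.0097), so only the high dose passed.

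H4c18, an H4 gene that shares most of its sequence with H4c17, was at 3.18, 1.91, 3.49, 4.23 and 1.73 TPM in high-dose lungs, against 1.46, 3.20, 0.00, 0.00 and 0.76 TPM in LPS lungs. The groups overlapped through LPS replicate 2. The log2 fold change was 1.08 (SE 0.43, limma adjusted p = 0.0637). It passed without LPS replicate 2 (1.39, limma adjusted p = 0.0227) and without AEAA mid-dose replicate 4 (1.08, limma adjusted p = 0.0368), and at the low dose it was 0.90 (SE 0.43, limma adjusted p = 0.169). H4c9 passed without LPS replicate 3 at the low dose (0.88, limma adjusted p = 0.0317) and at the high dose (0.68, limma adjusted p = 0.0349), and was 0.57 and 0.37 with all libraries. H2ac19 passed at the low dose without AEAA low-dose replicate 4 (0.52, limma adjusted p = 0.0410). H2ac10 and H2bc8 had negative values at every dose on both scales, without passing: −0.71, −1.01 and −0.83 for H2ac10 and −0.42, −0.54 and −0.53 for H2bc8 as deposited. Without the 7 libraries with low Cxcl2, 0 of 23 members rose or fell at any dose or in the slope, where 2.15, 0.0 and 5.14% of all genes rose and 11.1, 0.0 and 30.3% fell at the 3 doses, and 3.42% rose and 18.7% fell in the slope.

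**Figure D4:**
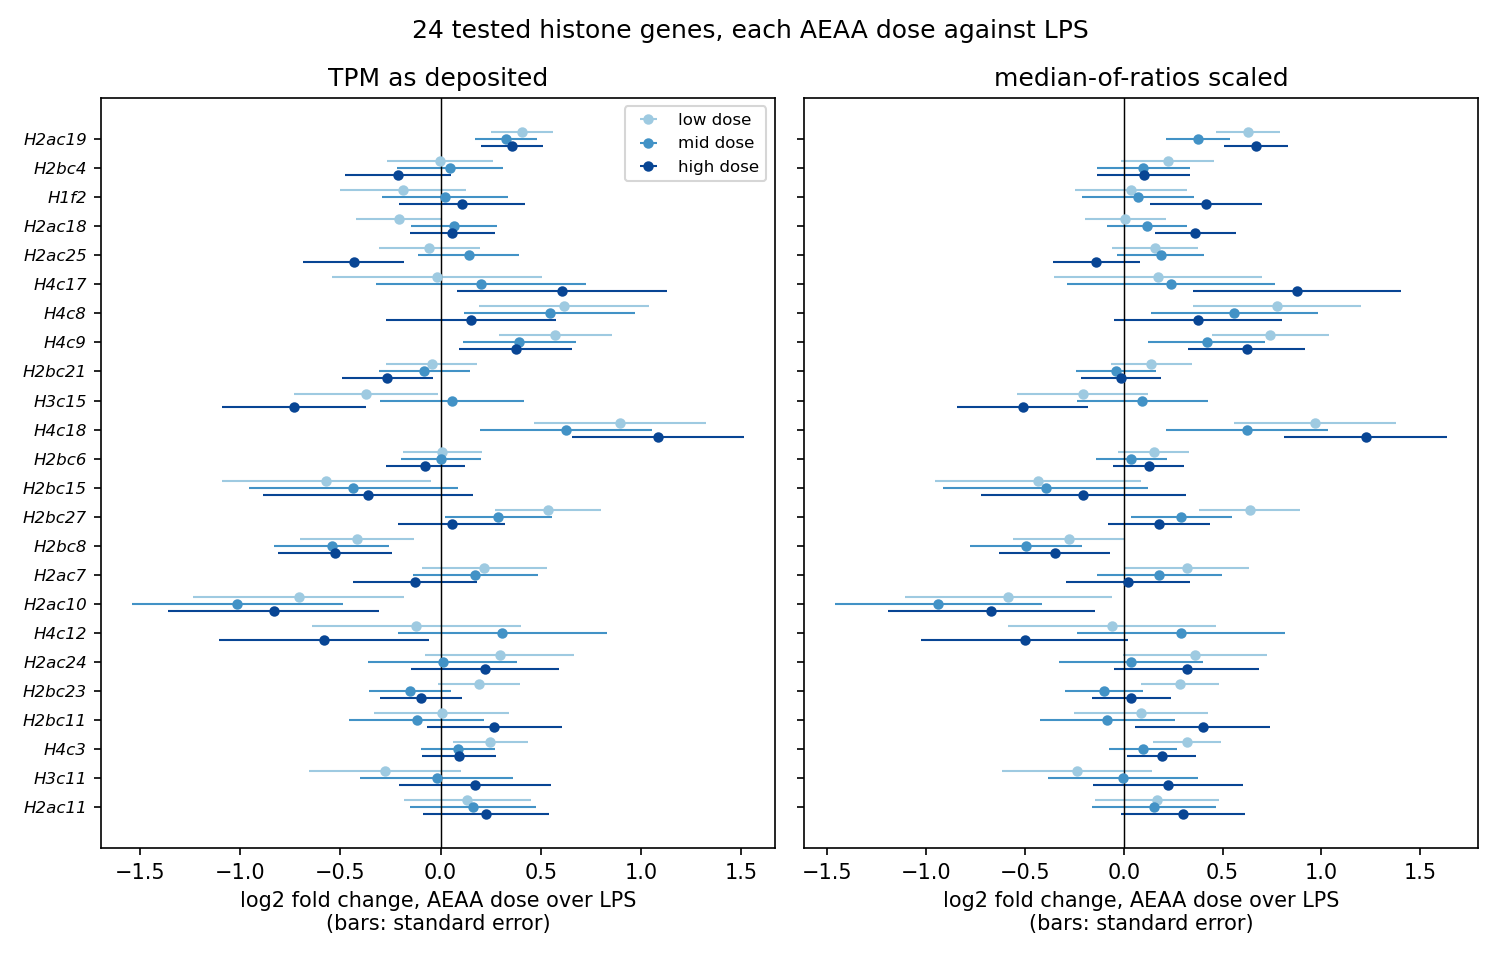
log2 fold change (horizontal axes) of the 24 tested histone genes at each AEAA dose over LPS, with standard errors, as deposited (left) and after median-of-ratios scaling (right). H2ac19 and H4c18 lie to the right of 0 at all 3 doses on both scales, and H2ac10 and H2bc8 to the left; as deposited no gene passed the test.

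Within the challenged groups, H1f2 and H2bc21 were highest where Cxcl2 was lowest. The 7 libraries with the lowest Cxcl2 were exactly the 7 with the highest H1f2, at 50.5 to 91.1 TPM, where the other 13 had 22.2 to 44.6 TPM and control lungs 37.2 to 45.9 TPM. The same 7 were the 7 with the highest H2bc21, an H2B gene, at 4.86 to 7.70 TPM, where the other 13 had 2.20 to 4.36 TPM and control lungs 4.36 to 5.23 TPM. These were 2 of the 24 tested members, and 3.29% of all genes had all 7 above the other 13. After scaling this held for 1 member, H2bc21, and for 2.15% of all genes, and H1f2 had 6 of 7. At least 6 of the 7 were shared by 3 members, with H2bc4 as the third, and by 13.6% of all genes. At least 5 were shared by 7 members, among them H2ac25 and H3c15, and by 27.9% of all genes, so these 2 counts are near the background. H2ac19 had 4 of 7 and H4c9 had 0 of 7, as had 10.2% of all genes. Summed neutrophil markers were at 295.0 to 2078 TPM in the 7 and 1861 to 12667 TPM in the other 13. Summed cardiac muscle markers were at 188.2 to 1616 TPM in the 7, 110.8 to 409.1 TPM in the other 13 and up to 950.1 TPM in control lungs. Medians in the 7 and the 13 were 114.6 and 58.5 TPM for summed B cell markers, and 103123 and 67018 TPM for summed lung markers. In every marker set the ranges of the 7 and the 13 overlapped. The part of these cells in the order was not tested. These orders are descriptions of values seen beforehand, and no test was run between libraries sorted by their own response.

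**Figure D5:**
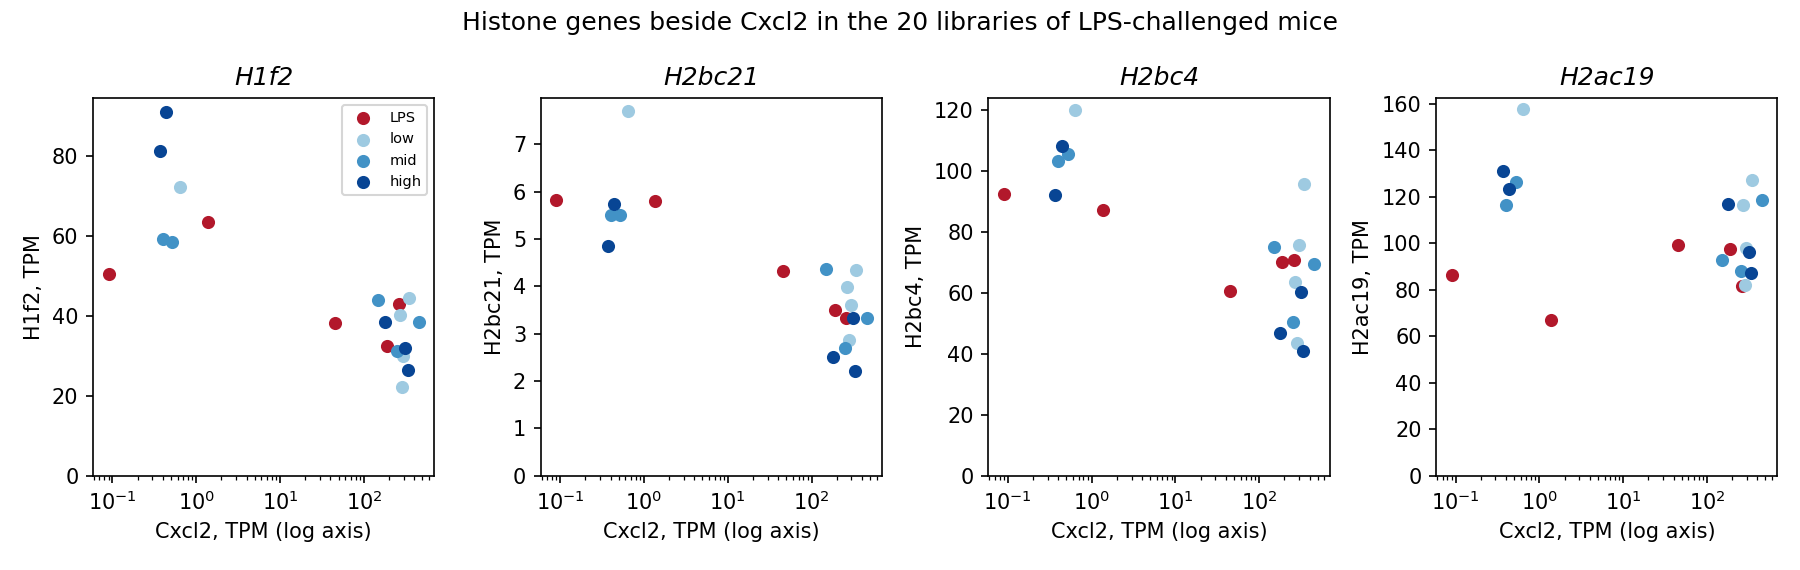
TPM of H1f2, H2bc21, H2bc4 and H2ac19 (vertical axes, from 0) beside TPM of Cxcl2 (horizontal axes, logarithmic) in the 20 libraries of LPS-challenged mice, coloured by group. All 7 libraries with Cxcl2 at or under 1.37 TPM lie above the other 13 for H1f2 and H2bc21, and H2ac19 shows no such split.

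These members also varied with one another. Among the 15 members above 0 in every library there were 105 pairs, whose log2(TPM + 1) values were correlated over the 24 libraries, with 100000 permutations. At an adjusted permutation p of 0.05, 27 pairs passed, all with positive r. The share that passes among pairs of other genes was not computed, so the count is not shown to be particular to these members. Libraries were permuted across groups and across the split by Cxcl2. H2bc4 and H2bc21 had Pearson's r of 0.89 and Spearman's rho of 0.87, H2bc4 and H2ac25 0.89 and 0.88, and H2bc4 and H1f2 0.84 and 0.88. For each of these the permutation p of r was 1e-05, the smallest the permutations can give, and 0.000175 after Benjamini-Hochberg adjustment over the 105 pairs. The permutation p of rho was 1e-05 too, and 0.00015 after adjustment.

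Leaving out the 2 libraries farthest from the median of the first gene kept r at 0.86, 0.85 and 0.79 for these pairs. On scaled values r was 0.91, 0.89 and 0.85, and on deviations from group means 0.91 in all 3. Since Cxcl2 splits the challenged libraries into separate clusters, r was also taken within each. It was 0.83, 0.85 and 0.68 in the 13 challenged libraries with high Cxcl2, and 0.65, 0.28 and 0.29 in the 7 with low Cxcl2. H1f2 and H2ac25, whose promoters are shown, had r of 0.71 over the 24 libraries, 0.61 in the 13 and −0.59 in the 7. H2ac18 and H2ac19, whose sequences are nearly the same, had r of −0.02 (permutation p = 0.925, adjusted 0.952) and rho of 0.05 (permutation p = 0.818, adjusted 0.875).

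Over the 16407 tested genes with an annotated transcript, 92.1% of all tested, the log2 fold change in LPS over control had Spearman's rho of 0.23 with transcript length across genes, which are not independent. The 24 members had a median annotated length of 579 bases, against 3017 bases for all tested genes. At the high dose over LPS the same rho was −0.37. The part of length in the members' values was not tested.

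Genes of the machinery around these messages mostly rose in LPS over control as deposited, as did 56.2% of all genes. Of 15 tested genes for transcription and 3′ processing of histone messages, 14 rose and 0 fell as deposited, and 3 rose and 1 fell after scaling, where 13.8% of all genes rose and 14.2% fell. Slbp, which encodes the stem-loop binding protein, rose by 0.57 (SE 0.14, limma adjusted p = 0.00098), but was −0.07 after scaling (limma adjusted p = 0.736). Cpsf2, a subunit of the cleavage complex that histone and other messages share, rose on both scales, by 1.11 (SE 0.12) and 0.52 (SE 0.13). Of 19 histone chaperones, 17 rose and 0 fell as deposited, and 7 rose and 0 fell after scaling. Cabin1, part of the H3.3-depositing HIRA complex, rose by 1.36 (SE 0.20) and Ipo4, an importin for histones, by 1.25 (SE 0.19).

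Most replication genes rose as deposited, where 1 of 24 tested histone members did. Of 33 genes for DNA replication and S phase, 31 rose and 1 fell in LPS over control as deposited, where 56.2% of all genes rose and 1.86% fell, and 8 rose and 2 fell after scaling, where 13.8% rose and 14.2% fell. The median log2 fold change of this list was 0.94 as deposited and 0.49 after scaling, beside 0.08 and −0.39 for the tested members. Mcm5, a subunit of the replicative helicase, rose by 1.93 (SE 0.25) and Uhrf1, which reads methylated DNA at replication forks, by 1.82 (SE 0.24). Both also rose after scaling, by 1.36 and 1.31. Of 19 G2 and mitosis genes 17 rose as deposited, against 56.2% of all genes, and 2 after scaling, near the 13.8% of all genes. Cdk1, the kinase that drives mitosis, rose by 1.53 (SE 0.31) and Mki67 by 1.44 (SE 0.34).

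Of 11 tested replication-independent histone genes, 4 rose and 1 fell as deposited, and 1 rose and 5 fell after scaling, with medians of 0.22 and −0.39. Of all genes 56.2% rose and 1.86% fell as deposited, and 13.8% rose and 14.2% fell after scaling. H3f3a rose by 0.44 (SE 0.09, limma adjusted p = 0.00021) as deposited and was −0.23 after scaling (limma adjusted p = 0.0915). H2ax, the variant phosphorylated at DNA breaks, rose by 0.93 (SE 0.14) as deposited and was 0.29 after scaling (limma adjusted p = 0.14). Macroh2a1, a variant of repressed chromatin, rose on both scales, by 0.94 and 0.28, and H2az2, an H2A.Z gene, fell on both, by 0.77 and 1.43.

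At the high dose over LPS, 0 rose and 8 of 33 S phase genes fell as deposited, and so did 9 of 19 G2 and mitosis genes, 7 of 19 chaperones and 6 of 15 processing genes, where 25.5% of all genes fell. The S phase count is near that share. After scaling these counts of genes that fell were 0, 0, 2 and 0, where 3.27% of all genes fell. The tested members, of which 0 of 24 fell on either scale, had a median of 0.06 as deposited where that of the S phase list was −0.34, and no test was made between the lists.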

How the data were processed

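Lung RNA was sequenced as 150-base read pairs from 24 mice. The authors deposited 1 table of TPM per gene, which adds up to the same total in each library. Per the submitters' processing notes, HISAT2, StringTie, RSEM and DESeq2 were used with GRCm39, without stated roles or versions. Read counts and depth are not given in the sources used here, so no count model was run, and the precision behind low TPM is unknown. Members, gene lists and tests were chosen with earlier results of these data known.

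log2(TPM + 1) of the 17823 genes with at least 1 TPM in at least 4 libraries was fitted with limma 3.58.1 (trended, robust) in R 4.3.3, with 1 mean per group over 24 libraries and Benjamini-Hochberg adjustment. On simulated data for LPS against control (17414 genes), 72 of 100 genes changed by 1 and 94 of 100 changed by 2 on the log2 scale were recovered, with 6 false calls. For the high dose against LPS these were 77, 91 and 7. The changed genes were drawn from those with a mean log2(TPM + 1) above 1, so these rates do not cover lower members. The simulated noise was normal and independent between genes, and the median gene was not shifted between groups. Alternatives were median-of-ratios and upper-quartile scaling, filters, a pseudocount of 0.1, only the groups compared, a replicate block and leaving out each library. Summing H2ac18 with H2ac19 (with and without scaling), leaving out 3 libraries with skeletal muscle transcripts and leaving out 7 with Cxcl2 under 2 TPM were added after the data were seen. Sequences came from GENCODE M21 and RefSeq (GRCm38), while the files use GRCm39.

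The text names the 3 most abundant members of each family and, per comparison, up to 5 members past the test in each direction or else the 2 with the smallest p. Of each pathway list it names genes among the 3 most abundant and the 2 that changed most. H2ac6, H3c7, H3c14, H4c12, H2ac7, H2ac11, H2bc11, H2bc27, Slbp, H2az2, Cldn5, Ager, Cxcl2, Saa3, Tnf, Xist, Ddx3y and Igkc stand outside this rule in places and were chosen after their values were seen.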

Additional observations from a re-analysis of the deposited data

Results flagged for a closer look

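In 5 of 80 groups of 4 or 5 libraries, 1 library lay far from the others by Dixon's test, which flags about 1 in 20 groups by chance. LPS replicate 3 was highest for H2ac10, at 8.33 TPM where the other LPS libraries had 0 to 1.89, and for H4c9, at 9.47 TPM where they had 1.83 to 3.77. LPS replicate 4 had H4c17 at 19.41 TPM where the others had 2.78 to 7.45, and mid-dose replicate 4 had it at 21.79 TPM where the others had 4.12 to 5.58. In both of these libraries the near copy H4c18 was at 0 TPM. Control replicate 4 had H3c15 at 4.46 TPM where the other controls had 2.01 to 2.39.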

How the results depend on the processing

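The count of histone genes past the test was small, and scaling moved it most. In LPS over control, 1 member rose as deposited, against 0 under median-of-ratios scaling, upper-quartile scaling, a pseudocount of 0.1, a replicate block and without the 3 libraries holding skeletal muscle transcripts. It was 2 without the 7 libraries with low Cxcl2, and 0 to 2 when each library was left out. The count that fell was 1, against 5 and 6 under the scalings, 2 with no filter and 2 without the 7 libraries. In the challenged average over control, 0 rose, against 1 under the replicate block, 1 without the muscle libraries, 4 without the 7 libraries and 0 to 1 with each library left out. There 1 fell, against 6 and 7 under the scalings, 2 with no filter, 3 without the 7 libraries and 0 to 2 with each library left out. In these 2 comparisons 14.2 and 18.7% of all genes fell under median-of-ratios scaling. Without the 7 libraries 56.8 and 57.1% of all genes rose, and 5.24 and 9.57% fell. Shares of all genes under the other alternatives are not given here, so those counts show dependence on processing and no trait of the members. The extra gene that fell with no filter was H3c14, which shares sequence with H3c15, and H3c7 rose in LPS over control in place of H2bc8. H2ac19 in the challenged average over control was −0.43 under upper-quartile scaling and 0.17 as deposited. Summed with H2ac18 under median-of-ratios scaling it was −0.34; members called were then 0 risen and 5 fallen in LPS over control, 7 fallen in the challenged average, and 1 risen at the high dose. At the low dose 0 rose, against 1 under either scaling and 0 to 1 with each library left out. At the high dose 0 rose, with the same counts, and 1 fell with no filter, H3c7. H4c8 fell in LPS over control under every alternative run. The mid dose and the slope had 0 members called throughout. Whether replicate numbers pair the libraries was not settled. Residuals of same-numbered libraries of different groups correlated at −0.45 to 0.64, with a median of 0.06 and 20 of 46 pairs over 0.1. Those of other numbers correlated at −0.58 to 0.59, with a median of −0.01 and 55 of 184 over 0.1. All libraries with low Cxcl2 except LPS replicate 2 were numbered 1 or 4. Read depth is unknown, so no floor can be set for the 43 members under the filter. DESeq2 was not run because the table holds no counts.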
